A study of Mus musculus with 5 samples.

Results

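The 9 genes described here, *Klf2*, *Klf3*, *Klf6*, *Klf13*, *S1pr1*, *S1pr4*, *Foxo1*, *Foxp1* and *Cd69*, encode transcription factors and surface proteins of thymic egress and T cell quiescence. They were given by name, found by symbol and Ensembl identifier among the 55487 gene identifiers counted. Messenger RNA was measured in CD4 SP cells, the thymocytes that keep CD4 and have lost CD8, by SMART-seq (reverse transcription of whole transcripts from few cells). There were 3 wild type (WT) and 2 *Tet2/3* DKO mice, all C57BL/6J, with 1 library per mouse, and the methods give mice of 21 to 30 days of age. The DKO genotype is labelled Tet2-/-Tet3flx/flxCD4cre. *Tet2* is thus disrupted in the germline, and *Tet3* is removed by a Cre that CD4 regulatory sequence switches on at the double-positive stage of thymocyte development. TET2 and TET3 oxidize methylated cytosine in DNA. Live CD4+ TCRb+ CD8- cells of low CD24 that did not bind the CD1d tetramer (and so not iNKT cells) were sorted.

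A mature thymocyte leaves the thymus by following sphingosine 1-phosphate (S1P), a lipid that is scarce in tissue and abundant in blood. FOXO1 is known to raise KLF2, and KLF2 to raise the S1P receptor S1PR1. CD69, which T cell receptor and interferon signals induce, binds S1PR1 and removes it from the surface, so that a cell with much CD69 stays. FOXP1 and KLF2 are also known for holding naive T cells in a resting state.

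CpG is the dinucleotide in which TET proteins act on methylated cytosine, and the promoters of the members differ in it. Of the 9 genes, 7 had a promoter in the RefSeq table (GRCm38.p6), and *S1pr1* and *Cd69* were not matched. The 250 bases before the start held 29 CpG in *Klf2*, 24 in *Klf13*, 23 in *Klf3*, 21 in *Klf6*, 20 in *Foxo1* and 0 in *S1pr4*, against a median of 6 over 32851 promoters. The 3 *Foxp1* promoters held 11, 3 and 34. The windows of *Klf2* (chr8:72318812-72319061, plus strand) and *S1pr4* (chr10:81500138-81500387, minus strand) are shown because, of the genes with 1 promoter, they hold the most and the fewest CpG. GENCODE starts some of these genes further upstream than RefSeq, so that the last bases of the *Klf2*, *Klf6* and *Foxo1* windows, most of the *Klf3* window and all *Foxp1* windows lie inside the gene as GENCODE draws it. CpG is in capitals.
*Klf2*: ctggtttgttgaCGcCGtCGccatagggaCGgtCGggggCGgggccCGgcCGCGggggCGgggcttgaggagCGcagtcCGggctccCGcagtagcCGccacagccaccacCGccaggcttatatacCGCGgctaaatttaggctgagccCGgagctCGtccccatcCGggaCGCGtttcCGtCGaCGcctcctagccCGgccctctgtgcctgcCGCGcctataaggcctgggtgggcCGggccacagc
*S1pr4*: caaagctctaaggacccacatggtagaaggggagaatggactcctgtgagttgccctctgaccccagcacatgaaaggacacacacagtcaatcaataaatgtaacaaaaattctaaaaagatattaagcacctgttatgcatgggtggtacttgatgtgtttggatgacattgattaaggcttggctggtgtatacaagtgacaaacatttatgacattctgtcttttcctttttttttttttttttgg
Fewer CpG than in the *Klf2* window were found in 93.2% of promoters. The letters CACCC, which KLF proteins are known to bind, were found on either strand in 6 of the 9 member promoters and in 52.0% of all promoters. The forkhead letters TGTTTAC were found in 0 of the 9 and in 3.17% of all. No methylation was measured in these libraries.

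Reads counted on genes came to between 23529075 and 27267031 in the WT libraries. *Tet2/3* DKO replicate 1 had 21371743 and replicate 2 had 17607089. Reads on *Tet3* were fewer in *Tet2/3* DKO cells (16.6 ± 4.83 against 47.3 ± 4.57 CPM, counts scaled by library size, SD, n = 2 and 3), with an edgeR adjusted p of 0.00121. *Tet2* stood at 91.5 and 58.6 CPM against 52.4 to 57.8 in WT, and a count over a whole gene cannot show the loss of a part of it. Of the labelled sexes, 2 went against the transcripts. WT replicate 1, labelled female, had 1932 reads on the Y-linked *Ddx3y* and 0 on *Xist*, and *Tet2/3* DKO replicate 1, labelled male, had 1 and 744. *Tet2/3* DKO replicate 1 also stood apart in reads on no annotated feature (5.70%, against 3.51% to 3.72% in the other 4 libraries). Its summed level of 16 immediate early and dissociation genes was 4407 CPM, against 2699 to 3130 in WT and 2414 in *Tet2/3* DKO replicate 2. The highest of them in this library were *Junb*, *Dusp1* and *Fos*, at 1257, 803.8 and 651.8 CPM, each above every WT library. Others of the list, *Egr1*, *Egr2*, *Nr4a1*, *Ier2* and *Nfkbia*, lay below every WT library in it (74.8, 23.6, 156.8, 243.8 and 533.8 CPM). The changes of the 9 genes are given below with and without this library.

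All 9 genes were expressed well above the filter on low counts, and *S1pr1* alone passed the adjusted p threshold of 0.01. *S1pr1* was lower in *Tet2/3* DKO cells. *Klf2* and *Cd69* lay just outside the threshold, *Klf2* lower and *Cd69* higher in each *Tet2/3* DKO library than in each WT library. Of the 9, 1 was lower and 0 were higher at 0.01 in edgeR's quasi-likelihood test, where 1.5% of the 13525 genes tested were lower, 2.42% higher and 3.92% changed in either direction. At an adjusted p of 0.05 there were 4, against 8.67% of all genes. Of these, 3 were lower (*S1pr1*, *Klf2* and *S1pr4*), where 3.48% of all genes were, and 1 was higher (*Cd69*), where 5.19% were. At an unadjusted p under 0.05 in edgeR there were 6, 2 higher and 4 lower, against 23% of all genes, 12.4% higher and 10.6% lower. DESeq2 at 0.01 called 3, all lower and 0 higher, namely *S1pr1*, *Klf2* and *S1pr4*, against 6.91% of the genes it tested. The libraries of the 2 genotypes did not overlap for 6 of the 9 genes, 4 lower and 2 higher, and they did not overlap for 39.1% of all genes tested, 19.5% lower and 19.6% higher. The median log2 fold change of the 9 was -0.28, against 0.01 over all genes, and it was -0.051 without *Tet2/3* DKO replicate 2. The median size of the change, whatever its sign, was 0.41 against 0.21. The edgeR p-values set the difference between genotypes against the spread of libraries within a genotype, moderated over all genes tested. They cover these 5 libraries only. In RNA of a sorted population, fewer cells that express a gene and less RNA per cell cannot be told apart.

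**Figure D1:**
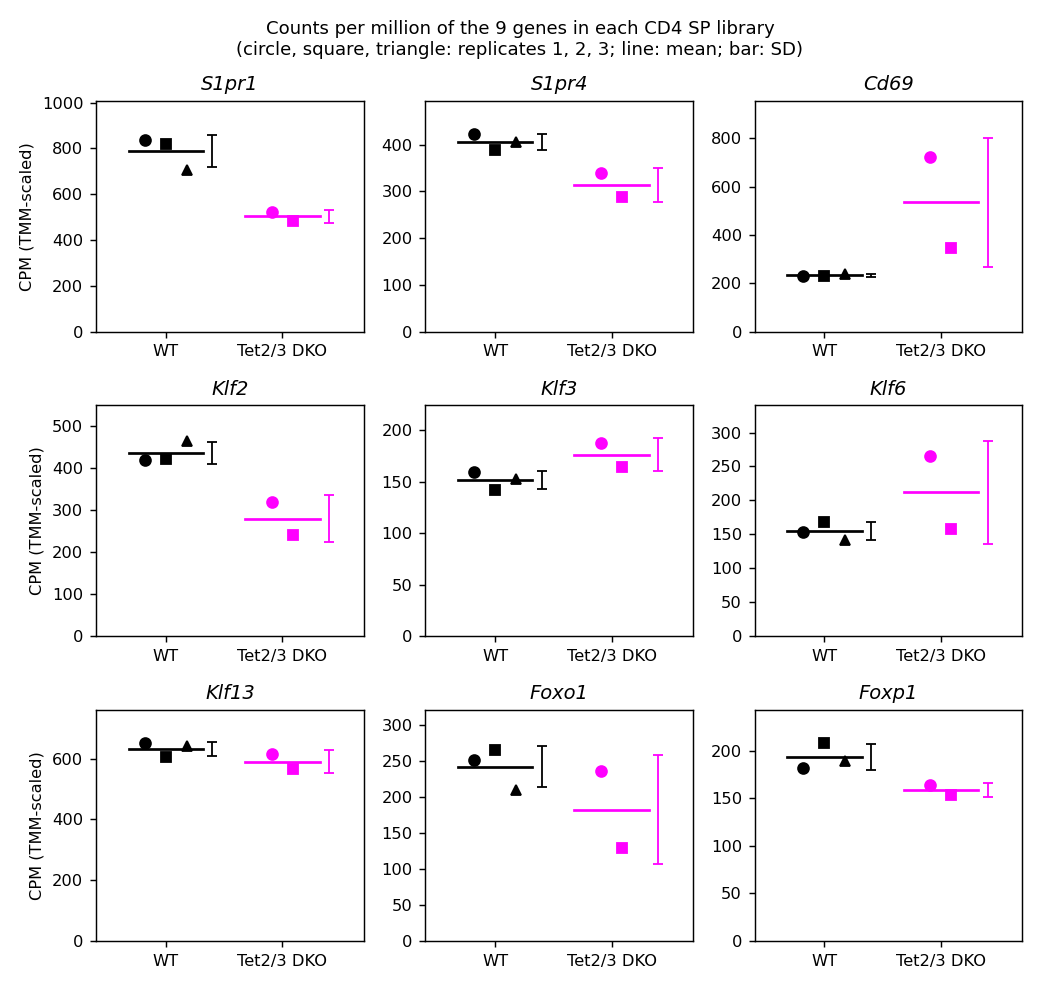
Level of each of the 9 genes (vertical axis, CPM after TMM scaling, starting at 0) in the 3 WT libraries (black) and the 2 Tet2/3 DKO libraries (magenta), with circle, square and triangle for replicates 1, 2 and 3, a line at the mean and a bar of 1 SD. S1pr1 was at 707.6 or above in WT and at 524.2 or below in Tet2/3 DKO cells, and the Tet2/3 DKO libraries stood far apart for Cd69, Klf6 and Foxo1.

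*S1pr1* (ENSMUSG00000045092, chromosome 3 of mm10 from 115710433 to 115715072, minus strand) encodes the receptor through which thymocytes sense S1P. It was counted at 837.3, 817.4 and 707.6 CPM in WT replicates 1 to 3 and at 524.2 and 484.2 CPM in *Tet2/3* DKO replicates 1 and 2. Each *Tet2/3* DKO library thus lay below each WT library, and the 2 were close to each other. The means were 787.4 ± 69.8 (SD, n = 3) and 504.2 ± 28.3 (SD, n = 2), 36.0% lower in *Tet2/3* DKO cells. The log2 fold change was -0.64 (standard error 0.10, 95% interval -0.86 to -0.42), and its edgeR adjusted p was 0.00394. Left without WT replicate 1, 2 or 3 in turn, the call was lost (adjusted p = 0.0312, 0.0336 and 0.0118 in edgeR) while the log2 fold change stayed between -0.72 and -0.60. Without *Tet2/3* DKO replicate 1 or 2 it was within the same range and past the threshold.

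*S1pr4* (ENSMUSG00000044199, chromosome 10 from 81497747 to 81500132, minus strand) encodes a related S1P receptor of lymphocytes. Its levels were 421.8, 388.5 and 404.9 CPM in WT and 339.8 and 287.6 CPM in *Tet2/3* DKO cells. The genotypes did not overlap. The means were 405.1 ± 16.7 and 313.7 ± 36.9. The log2 fold change of -0.37 (standard error 0.10, interval -0.59 to -0.15) did not pass 0.01 in edgeR (adjusted p = 0.0466). Without *Tet2/3* DKO replicate 1 it was -0.50 and passed the threshold, and without replicate 2 it was -0.27 (edgeR adjusted p = 0.0910). Without WT replicate 1, 2 or 3 the edgeR adjusted p was 0.198, 0.0986 and 0.133, and with the reads of the second strand column it was 0.0665, so that the call at 0.05 was lost in each. Of the 5 receptors of the family, 3 were tested. The third, *S1pr2*, was at 9.83, 10.7 and 10.1 CPM in WT and at 13.9 and 16.8 CPM in *Tet2/3* DKO cells, with a log2 fold change of 0.59 (edgeR adjusted p = 0.0583). *S1pr3* and *S1pr5* had between 0 and 3 reads in a library and were not tested.

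*Cd69* (ENSMUSG00000030156, chromosome 6 from 129267325 to 129275436, minus strand) encodes the surface protein that counteracts S1PR1. WT libraries were tightly grouped at 232.3, 228.8 and 239.3 CPM. *Tet2/3* DKO replicate 1 was at 724.2 CPM and replicate 2 at 347.8 CPM. Each lay above WT, and the difference between these replicates, 1.06 on the log2 scale, was far larger than the WT range of 0.06. The means were 233.5 ± 5.31 and 536.0 ± 266.1, a fold change of 2.30. On the log2 scale this was 1.20 (standard error 0.23, interval 0.67 to 1.73, edgeR adjusted p = 0.0131). Without *Tet2/3* DKO replicate 1 the log2 fold change was 0.57, and without *Tet2/3* DKO replicate 2 it was 1.62. Each passed the threshold, where the lone *Tet2/3* DKO library is assumed to vary as the WT libraries do. The edgeR adjusted p was 0.0620, 0.0892 and 0.0794 without WT replicate 1, 2 or 3 and 0.129 with robust moderation, so that the call at 0.05 was lost in each. The part of the immediate early genes in the level of *Cd69* was not tested.

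*S1pr1* and *Cd69* were also set against each other within each library, a ratio that needs no scaling between libraries. Per kb of exon, *S1pr1* had 7.70, 7.63 and 6.32 times the reads of *Cd69* in WT replicates 1 to 3, and 1.55 and 2.98 times in *Tet2/3* DKO replicates 1 and 2. Every *Tet2/3* DKO library lay below every WT library. The ratio was 3.35-fold lower in *Tet2/3* DKO cells, with mean log2 ratios of 1.10 ± 0.67 (SD, n = 2) and 2.85 ± 0.16 (SD, n = 3). The exact two-sided permutation p was 0.1, the smallest that 3 libraries against 2 can give, so this design could not reach 0.05. The ratio of *S1pr1* to *Klf2* per kb ran from 0.92 to 1.21 in WT and was 0.996 and 1.22 in *Tet2/3* DKO cells, so the genotypes overlapped.

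*Klf2* (ENSMUSG00000055148, chromosome 8 from 72319033 to 72321656, plus strand) encodes the transcription factor upstream of *S1pr1*. It was counted at 420.1, 420.5 and 465.2 CPM in WT and at 319.2 and 240.4 CPM in *Tet2/3* DKO cells. Each of the latter was below WT, replicate 2 further than replicate 1. The means were 435.2 ± 25.9 and 279.8 ± 55.7, 35.7% lower, and the log2 fold change of -0.64 (standard error 0.12, interval -0.91 to -0.36) was of the same size as that of *S1pr1*. Its edgeR adjusted p was 0.0127, just outside the threshold, and it passed with DESeq2, with robust moderation and without either *Tet2/3* DKO replicate, at log2 fold changes from -0.86 to -0.46 in the latter. Without WT replicate 1, 2 or 3 the edgeR adjusted p was 0.0512, 0.0571 and 0.0701, which also loses the call at 0.05.

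*Klf3* (ENSMUSG00000029178, chromosome 5 from 64803388 to 64832901, plus strand) encodes a KLF protein that represses transcription. It stood at 159.2, 142.1 and 152.9 CPM in WT and was higher in *Tet2/3* DKO cells, at 187.4 and 164.5 CPM in *Tet2/3* DKO cells. The genotypes did not overlap, but the gap from WT replicate 1 to *Tet2/3* DKO replicate 2 was small. Its log2 fold change of 0.22 (standard error 0.10, interval -0.00085 to 0.44) did not pass the threshold in edgeR (adjusted p = 0.219), and it was 0.12 without *Tet2/3* DKO replicate 1. On the other strand *Klf3* overlaps the gene *Gm20033*, and reads counted without strand came to 86.1% of those of both strand counts.

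*Klf6* (ENSMUSG00000000078, chromosome 13 from 5861482 to 5870394, plus strand), a KLF gene that responds quickly to stimulation in many cells, stood at 153.6, 168.7 and 142.1 CPM in WT. *Tet2/3* DKO replicate 1 had 265.7 CPM and replicate 2 had 157.9 CPM, which lies inside the WT range. The log2 fold change was 0.45 (standard error 0.18, interval 0.04 to 0.87, edgeR adjusted p = 0.178). It was 0.03 without *Tet2/3* DKO replicate 1 and 0.76, past the threshold, without *Tet2/3* DKO replicate 2. *Klf6* was thus high in the same library as *Cd69* and the sum of the immediate early genes, whose part in its level was not tested.

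*Klf13* (ENSMUSG00000052040, chromosome 7 from 63886351 to 63938915, minus strand) encodes a KLF protein that is abundant in T cells. It was counted at 651.6, 605.4 and 640.5 CPM in WT and at 617.2 and 564.7 CPM in *Tet2/3* DKO cells. The genotypes overlapped. On the log2 scale the change was -0.10 (standard error 0.08, interval -0.29 to 0.09, edgeR adjusted p = 0.546), and -0.17 without *Tet2/3* DKO replicate 1.

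Over the whole KLF family, 11 of 17 genes were tested and 0 passed 0.01 in edgeR in either direction, with a median log2 fold change of -0.04. At an unadjusted p under 0.05 there were 2 higher and 3 lower (12.4% and 10.6% of all genes). DESeq2 called 1, *Klf2*, against 6.91% of the genes it tested. The largest log2 fold changes were those of *Klf12* and *Klf4*, both expressed at a very low level. *Klf12* was at 0.31, 0.59 and 0.55 CPM in WT and at 1.24 and 2.18 CPM in *Tet2/3* DKO cells (log2 fold change 1.79, edgeR adjusted p = 0.0443). *Klf4*, which is known for restraining T cell proliferation, had a log2 fold change of 0.86 (edgeR adjusted p = 0.334).

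*Foxo1* (ENSMUSG00000044167, chromosome 3 from 52268336 to 52353221, plus strand) encodes the forkhead factor upstream of *Klf2* and *Il7r*. Its WT levels were 251.3, 265.9 and 210.4 CPM. *Tet2/3* DKO replicate 1, at 236.5 CPM, lay inside the WT range and replicate 2, at 129.1 CPM, below it. The log2 fold change was -0.41 (standard error 0.22, interval -0.89 to 0.08, edgeR adjusted p = 0.310). It was -0.91 and past the threshold without *Tet2/3* DKO replicate 1, and -0.05 without *Tet2/3* DKO replicate 2. *Foxo1* shares exon sequence with *Gm20402* on the other strand, and its reads without strand came to 82.9% of those of both strand counts.

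*Foxp1* (ENSMUSG00000030067, chromosome 6 from 98925338 to 99522721, minus strand) encodes the forkhead factor that keeps naive T cells quiescent. It was at 182.0, 208.5 and 189.4 CPM in WT and at 164.1 and 153.4 CPM in *Tet2/3* DKO cells. The genotypes did not overlap and the *Tet2/3* DKO libraries were close together. The means were 193.3 ± 13.7 and 158.8 ± 7.59. The log2 fold change of -0.28 (standard error 0.09, interval -0.50 to -0.07) did not pass the threshold in edgeR (adjusted p = 0.106) and was -0.34 without *Tet2/3* DKO replicate 1.

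Of the 8 genes of the FOXO and FOXP family, 6 were tested, and 1 passed as lower (1.5% of all genes), *Foxp3*, the lineage factor of regulatory T cells. DESeq2 also called 1 lower, against 6.91% of the genes it tested in either direction. At an unadjusted p under 0.05 in edgeR 2 were lower (10.6% of all genes). *Foxp3* had 44.4, 58.1 and 54.3 CPM in WT and 17.9 and 24.3 CPM in *Tet2/3* DKO cells, 59.7% lower (log2 fold change -1.31, standard error 0.17, edgeR adjusted p = 0.00191). Of its exon bases, 31.5% overlap other genes, and with the reads of the first strand column alone its log2 fold change was -0.59 and did not pass. The call was also lost without WT replicate 2 or 3.

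**Figure D2:**
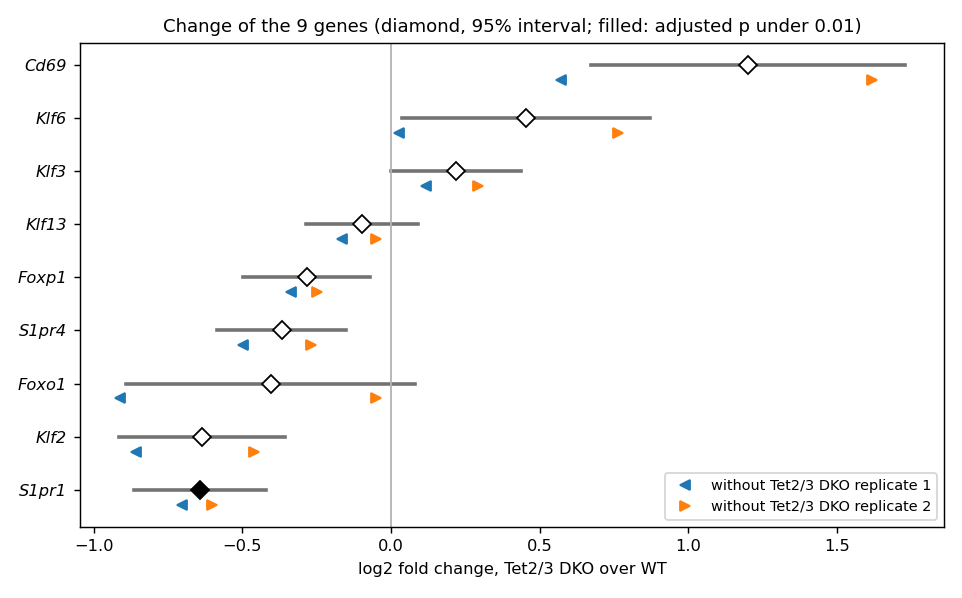
Log2 fold change of the 9 genes in Tet2/3 DKO over WT cells (horizontal axis; diamond with 95% interval, filled where the edgeR adjusted p was under 0.01), with the value without Tet2/3 DKO replicate 1 (blue) or replicate 2 (orange) below each. S1pr1 is the filled diamond at -0.64, and the blue and orange marks lie far apart for Foxo1, Klf6 and Cd69 and close together for S1pr1, Foxp1 and Klf13.

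The 2 *Tet2/3* DKO libraries differed more for some members than for others. From replicate 1 to replicate 2 the log2 difference was -1.06 for *Cd69*, -0.87 for *Foxo1*, -0.75 for *Klf6* and -0.41 for *Klf2*. For *S1pr4*, *Klf3*, *Klf13*, *S1pr1* and *Foxp1* it lay between -0.24 and -0.10. Replicate 2 was the lower for each of the 9 genes. The WT libraries spanned between 0.06 and 0.34 on the same scale, and for 7 of the 9 genes, all but *S1pr1* and *Foxp1*, the difference between the *Tet2/3* DKO libraries exceeded the WT span of the same gene.

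Compared per kb of exon, so that genes of different length could be ordered, *S1pr1* and *Klf2* stood first in WT cells with 258.5 and 235.7 CPM per kb, followed by *S1pr4* (169.8), *Klf13* (84.0), *Cd69* (35.9), *Klf6* (35.3), *Foxo1* (28.0), *Foxp1* (14.1) and *Klf3* (13.5). Ranked among the 13525 genes tested, *S1pr1* took place 181 and *Klf3* place 3886. The WT libraries overlapped between *S1pr1* and *Klf2*, between *Cd69* and *Klf6*, and between *Foxp1* and *Klf3*, so these neighbours could not be ordered. In *Tet2/3* DKO cells *S1pr1* (165.5), *Klf2* (151.5) and *S1pr4* (131.5) still came first. *Cd69* (82.4 CPM per kb) came next, with its libraries at 53.4 and 111.3 on either side of those of *Klf13* (78.5). *Klf6* (48.2), *Foxo1* (21.1), *Klf3* (15.7) and *Foxp1* (11.6) followed. The *Tet2/3* DKO libraries overlapped between *S1pr1* and *Klf2*, *Klf2* and *S1pr4*, *Cd69* and *Klf13*, and *Foxo1* and *Klf3*. Those of *Cd69* and *Klf6*, which are not neighbours in this order, overlapped too (53.4 to 111.3 and 36.0 to 60.5 CPM per kb).

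**Figure D3:**
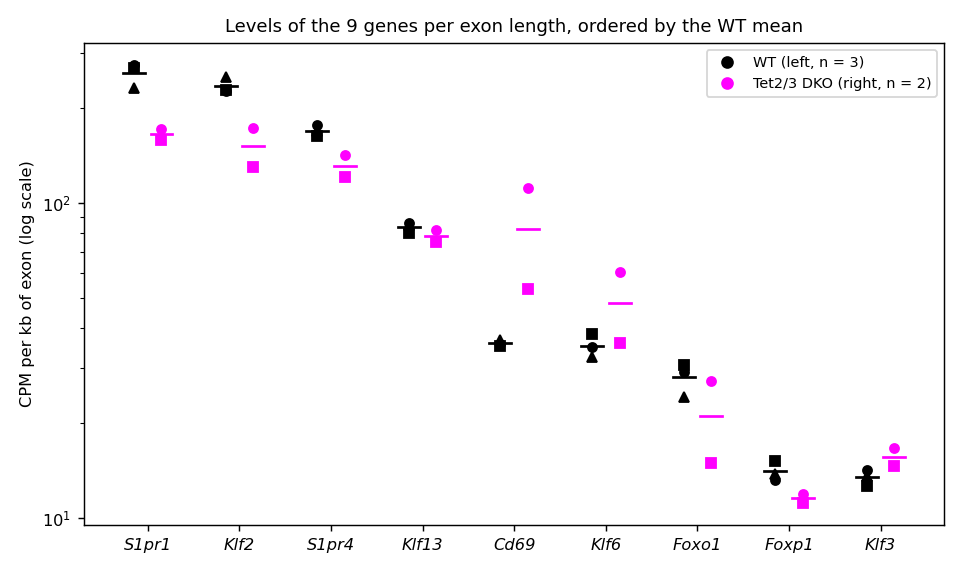
Level of the 9 genes per kb of exon (vertical axis, CPM per kb, log scale) in WT (black, left) and Tet2/3 DKO libraries (magenta, right), ordered by the WT mean, with a line at each mean. S1pr1 and Klf2 overlap at the top in WT, and Cd69 lies at the level of Klf6 in WT and of Klf13 in Tet2/3 DKO cells.

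Among 8392 tested genes whose mean log2 CPM was 3 or more, those whose profile over the 5 libraries was most like that of *S1pr1* were *Hid1*, *Anxa6* and *Galnt10*. Their centred log2 CPM differed from that of *S1pr1* by a root mean square of 0.02, 0.04 and 0.05. *Anxa6*, which encodes a calcium-dependent membrane-binding annexin, was at 1266, 1300 and 1062 CPM in WT and at 838.4 and 731 CPM in *Tet2/3* DKO cells. *Galnt10*, which encodes an enzyme that starts O-linked glycosylation, was at 225.2, 236.5 and 198.8 CPM in WT and at 149.7 and 128.8 CPM in *Tet2/3* DKO cells. *Hid1* was at 41.1, 38.9 and 34.4 CPM in WT and at 26.0 and 23.6 CPM in *Tet2/3* DKO cells. These genes were picked for their likeness to *S1pr1* over the same libraries, so their lower levels in *Tet2/3* DKO cells follow from the choice.

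The lipid itself is made, broken down and moved by 10 listed genes, of which 6 were tested and 0 passed in edgeR. None had an unadjusted p under 0.05 in edgeR and DESeq2 called 0, against 23% and 6.91% of all genes. Their median log2 fold change was 0.24. *Plpp1* and *Plpp2*, phosphatases of lipid phosphates, had the largest values (log2 fold changes 1.93 and 0.61, edgeR adjusted p = 0.236 and 0.471). *Plpp1* was at 0.24 CPM in *Tet2/3* DKO replicate 1 and at 3.69 CPM in replicate 2, against 0.26 to 0.62 CPM in WT.

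Of 12 genes of egress signaling and motility, all tested, 2 were lower in *Tet2/3* DKO cells and 0 higher, with a median log2 fold change of -0.01. Of all genes, 1.5% were lower and 2.42% higher. At an unadjusted p under 0.05 there were 1 higher and 2 lower (12.4% and 10.6% of all genes). DESeq2 also called 2 lower and 0 higher, against 6.91% of the genes it tested in either direction. The 2 were *Gnai2*, which encodes the inhibitory G protein subunit that S1PR1 and chemokine receptors use, and *Arhgef1*, which encodes an activator of the GTPase RhoA. *Gnai2* was at 1473, 1497 and 1473 CPM in WT and at 1137 and 1017 CPM in *Tet2/3* DKO cells, 27.3% lower (log2 fold change -0.46, standard error 0.08, edgeR adjusted p = 0.00891). *Arhgef1* was at 693.7, 842.1 and 648.5 CPM in WT and at 439.1 and 463.1 CPM in *Tet2/3* DKO cells, 38.0% lower (log2 fold change -0.69, standard error 0.12, edgeR adjusted p = 0.00659). Neither gene's libraries overlapped between genotypes. Each lost its call without WT replicate 1, 2 or 3 (edgeR adjusted p up to 0.0564 for *Gnai2* and 0.0293 for *Arhgef1*), and *Gnai2* passed in 8 of 15 alternatives.

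Of 11 homing and maturation receptors, all tested, 2 were higher and 1 was lower (2.42% and 1.5% of all genes), with a median log2 fold change of 0.51. DESeq2 called 4 higher and 3 lower, against 6.91% of the genes it tested in either direction. At an unadjusted p under 0.05 in edgeR 6 were higher and 4 lower (12.4% and 10.6% of all genes). *Ccr7*, the receptor that draws thymocytes into the medulla and naive T cells into lymph nodes, was at 2219, 2160 and 2220 CPM in WT and at 1470 and 1336 CPM in *Tet2/3* DKO cells. It was 36.2% lower (log2 fold change -0.65, standard error 0.08, edgeR adjusted p = 0.00153). *Itgae*, the integrin chain CD103 that pairs with the beta 7 chain and binds E-cadherin, rose from 3.87, 6.74 and 4.41 CPM to 31.8 and 29.6 CPM (log2 fold change 2.63, standard error 0.21, edgeR adjusted p = 0.000118). *Ccr4*, a chemokine receptor of positively selected thymocytes, rose from 7.58, 9.86 and 10.7 CPM to 20.1 and 27.3 CPM (log2 fold change 1.33, standard error 0.20, edgeR adjusted p = 0.00345). *Itgae* passed in all 15 alternatives, and *Ccr7* and *Ccr4* in 12 of 15, each lost without WT replicate 1, 2 or 3. Without a WT library 1 receptor was higher and 0 were lower, without *Tet2/3* DKO replicate 1 there were 3 and 2, and without replicate 2 there were 4 and 2.

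Of the receptors that did not pass, 2 were chosen after their values were seen because they are known targets of FOXO1 or KLF2. *Itgb7*, the beta 7 chain, was at 1440, 1373 and 1167 CPM in WT and at 941.6 and 884 CPM in *Tet2/3* DKO cells (log2 fold change -0.54, edgeR adjusted p = 0.0121). *Il7r*, the survival receptor of resting T cells, was at 288.1 to 300.8 CPM in WT and at 238.8 and 245.9 CPM in *Tet2/3* DKO cells (log2 fold change -0.29, edgeR adjusted p = 0.0608). Named as a check, others that did not pass went both ways. The log2 fold changes of *Cxcr4*, *Itga4*, *Cd44* and *Ccr9* were 1.40, 0.70, 0.59 and 0.51, and that of *Plxnd1* was -0.92.

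**Figure D4:**
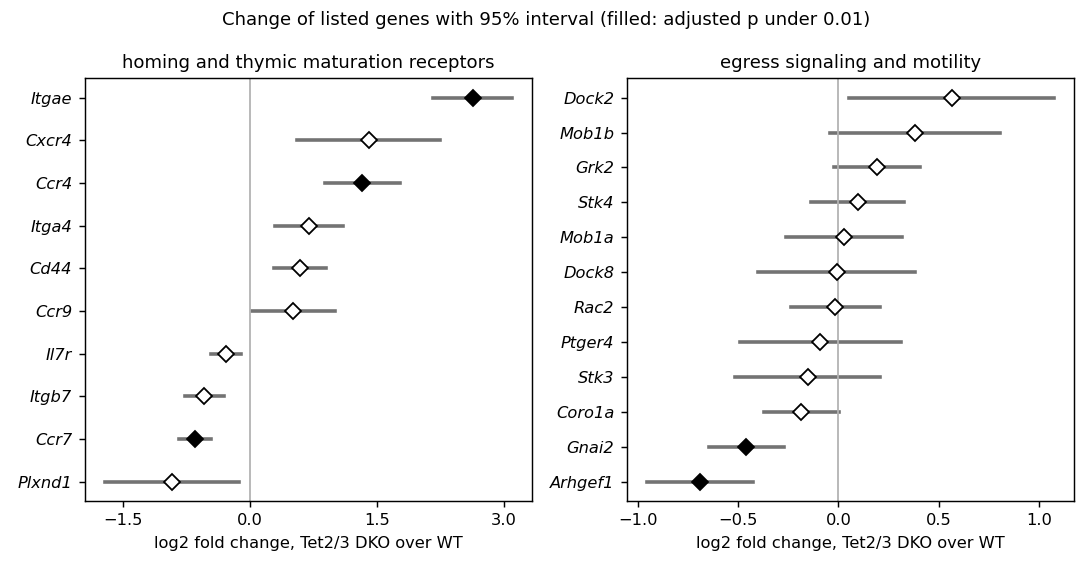
Log2 fold change (horizontal axis, Tet2/3 DKO over WT, with 95% interval) of 10 of the 11 homing and thymic maturation receptors (left) and the 12 genes of egress signaling and motility (right), filled where the edgeR adjusted p was under 0.01. Itgae and Ccr4 are filled to the right of 0, and Ccr7, Gnai2 and Arhgef1 to the left.

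Over 17 listed targets of FOXO1 and KLF2 outside the 9 genes, all tested, 2 were higher, 2 lower (2.42% and 1.5% of all genes) and 13 not past, with a median log2 fold change of -0.20. DESeq2 called 2 higher and 5 lower, against 6.91% of all genes in either direction. At an unadjusted p under 0.05 in edgeR 4 were higher and 8 lower (12.4% and 10.6% of all genes), and the libraries lay apart for 4 higher and 9 lower (19.6% and 19.5%). The lower ones were *Ccr7* and *Tcf7*, which encodes the T lineage factor TCF-1 and was at 1183, 1290 and 1384 CPM in WT and at 922.1 and 817.8 CPM in *Tet2/3* DKO cells (log2 fold change -0.56, edgeR adjusted p = 0.00741). The higher ones were *Cxcr3*, a chemokine receptor of effector T cells, and *Cdkn1a*, which encodes the cell cycle inhibitor p21. *Cxcr3* rose from 18.6, 19.2 and 31.2 CPM to 247.3 and 323.8 CPM, a fold change of 12.4 (edgeR adjusted p = 2.27e-05). *Cdkn1a* rose from 0.62, 0.84 and 0.51 CPM to 3.81 and 5.32 CPM (log2 fold change 2.79, edgeR adjusted p = 0.00169). *Tcf7* and *Cdkn1a* lost their call without WT replicate 1, 2 or 3, and between 1 and 4 targets were higher and between 0 and 5 lower with 1 library left out.

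Of 16 genes of T cell quiescence, 15 were tested and 0 passed in edgeR (3.92% of all genes), with a median log2 fold change of 0.05. At an unadjusted p under 0.05 there were 3 higher and 2 lower (12.4% and 10.6% of all genes). DESeq2 called 2, both higher, against 6.91% of the genes it tested in either direction. *Slfn1* and *Btg2*, which are known for holding back growth and division, had the largest values. *Slfn1* was at 841.7 to 1004 CPM in WT and at 1485 and 1116 CPM in *Tet2/3* DKO cells (log2 fold change 0.51, edgeR adjusted p = 0.0373), and *Btg2* was at 246.0 to 257.1 CPM against 306.2 and 328.5 CPM (0.35, edgeR adjusted p = 0.0302). Both lay above WT in each *Tet2/3* DKO library.

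Of the 16 immediate early and dissociation genes, 13 were tested and 0 passed in edgeR, with a median log2 fold change of 0.35. At an unadjusted p under 0.05 there were 2 higher and 4 lower (12.4% and 10.6% of all genes). DESeq2 called 1 higher and 1 lower, against 6.91% of the genes it tested in either direction. The count past 0.01 in edgeR rose from 0, in both directions, when either *Tet2/3* DKO library was left out. The count over all genes rose too, and the lone library is there assumed to vary as the WT libraries do. *Hspa1a* (log2 fold change 2.47, edgeR adjusted p = 0.223) and *Fos* (0.71, edgeR adjusted p = 0.343) had the largest values. *Hspa1a* was expressed at a very low level, at 0.19, 0.42 and 0.07 CPM in WT. It was at 0.05 CPM in *Tet2/3* DKO replicate 1 and at 2.63 CPM in replicate 2, so its change came from replicate 2 alone. *Fos*, which T cell receptor signals and tissue dissociation both induce, was at 236.3, 406.7 and 175.1 CPM in WT, at 651.8 CPM in *Tet2/3* DKO replicate 1 and at 240.1 CPM in replicate 2.

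Markers of other cells were read beside these genes. Over all genes tested, 2.42% were higher and 1.5% lower. CD4 SP markers were abundant in every library, with a summed level of 8874 to 9381 CPM in WT and 9122 and 7567 CPM in *Tet2/3* DKO cells. Of these 9 genes, 3 passed as lower, *Cd4*, *Cd5* and *Zbtb7b* (log2 fold changes -0.67, -1.28 and -1.17), and the median was -0.52. Without WT replicate 1, 2 or 3 there were 2, 1 and 1 lower, and without *Tet2/3* DKO replicate 1 or 2 there were 3 and 5. Those of double-positive thymocytes summed to 88.6 to 98.2 CPM and to 48.6 and 50.5 CPM, with *Rag1* at 0 reads everywhere. *Cd8b1* made up 65.9 to 71.7 CPM of these sums in WT and 28.6 and 27.1 CPM in *Tet2/3* DKO cells. *Cd8a* of the same list went the other way, from 2.71 to 5.39 CPM in WT to 5.77 and 8.67 CPM. Markers of innate-like or effector T cells summed to 258.5 to 290.6 CPM in WT and to 826.1 and 1315 CPM in *Tet2/3* DKO cells, and 6 of 10 passed the threshold as higher. Recirculating or memory markers were at 518.5 to 526.4 CPM in WT and at 688.3 and 1057 CPM, with 3 of 6 tested higher (*Cxcr3*, *S100a6* and *Ly6c2*). *Lgals1*, also of this list, had a log2 fold change of -0.57 (edgeR adjusted p = 0.157), with both *Tet2/3* DKO libraries below WT. Gamma-delta markers were at 28.5 to 30.5 CPM in WT and at 234.6 and 376 CPM, with 3 of 5 higher, all of them T cell receptor gamma constant genes (*Tcrg-C1*, *Tcrg-C2* and *Tcrg-C4*). *Trdc*, the delta constant gene, had a log2 fold change of 0.33 (edgeR adjusted p = 0.377), and *Sox13* one of -2.12 (edgeR adjusted p = 0.0361) with both *Tet2/3* DKO libraries below WT. CD8 SP markers were at 97.6 to 117.2 CPM in WT and at 410.2 and 650.3 CPM, with 2 of 4 higher (*Nkg7* and *Eomes*) and 1 lower. *Nkg7*, which the innate-like list also holds, made up 294.6 and 521.8 CPM of the *Tet2/3* DKO sums. The coreceptor gene *Cd8b1* was the lower one (log2 fold change -1.29, edgeR adjusted p = 0.000168), and *Cd8a* did not pass (edgeR adjusted p = 0.128). *Cxcr3* and *Il2rb* are in both the innate-like and the recirculating list, and *Cd8a* and *Cd8b1* also in the double-positive list. Regulatory T cell markers stood at 347.2 to 414.9 CPM in WT and at 264.6 and 300.8 CPM in *Tet2/3* DKO cells, with *Foxp3* the 1 of 5 that was lower. Myeloid markers summed to 7.43 to 13.3 CPM in WT and to 23.2 and 50.6 CPM in *Tet2/3* DKO cells, B cell markers to 6.885 to 7.397 CPM and to 9.30 and 11.6 CPM, and erythroid markers to at most 0.34 CPM. In the main comparison 0 of them passed in edgeR or DESeq2, with 1 B cell and 3 myeloid genes at an unadjusted p under 0.05. Without *Tet2/3* DKO replicate 1 or 2, 2 myeloid genes were higher. With 1 library left out, between 3 and 10 innate-like and between 1 and 5 recirculating markers were higher. In *Tet2/3* DKO replicate 2, where each of the 9 genes was lower than in replicate 1, the innate-like, recirculating, CD8 SP, gamma-delta, B cell, myeloid and erythroid sums were the highest of the 5 libraries. The part of these other cells or states in the levels of the 9 genes was not tested.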

How the data were processed

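RNA of sorted CD4 SP cells was sequenced from 3 WT and 2 *Tet2/3* DKO mice. Per the labels and the methods, the authors trimmed reads with fastp 0.21.0, aligned them with STAR 2.7.5a to mm10 with an Ensembl annotation of GRCm38, and deposited for each library the counts of reads per gene, without normalization and without pooling. Such counts leave out reads with several alignments and reads that fall on more than 1 gene. No molecular identifiers were used, so the counts are of reads and not of molecules. Rows that name no gene held 20.8% to 23.7% of reads and were left out.

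Counts without regard to strand were tested here with edgeR 4.0.16 in R 4.3.3 (quasi-likelihood test, newer dispersion moderation, TMM scaling, filterByExpr by genotype with a minimum count of 10, Benjamini-Hochberg adjustment over 13525 tested genes, threshold 0.01). Levels are CPM (counts divided by the TMM-scaled library size), divided by exon length where genes were compared. Errors are SD over libraries. DESeq2 1.42.0, other scaling, filters, moderation and strand columns, a replicate block and leaving out libraries were tried as alternatives. Symbols, coordinates and exon lengths came from GENCODE M21 (GRCm38, the build of mm10), where 55227 of 55487 identifiers were found. Promoters came from RefSeq (GRCm38.p6).

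Genotypes and replicate numbers were taken from the labels. In the methods the mice are male, whereas WT replicate 1 is labelled female. The 9 genes and the lists were chosen with earlier results of these data known. Named are the 9 genes, of each pathway or family list the genes past 0.01 or otherwise the 2 with the largest change, the 3 profiles nearest to a member past the threshold, and, chosen after their values were seen, the genes named as checks, the marker genes and those said to be so chosen. The T cell receptor clonotype tables were not used, and some genes are not reported here.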

Additional observations from a re-analysis of the deposited data

How the results depend on the processing

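Over 15 alternatives for each of the 9 genes, 115 of 135 changes kept their direction and side of the threshold, 17 newly passed, 3 no longer passed and 0 reversed. The main count of 1 of the 9 past the threshold became 4 at an adjusted p of 0.05, 3 with no filter on low counts, 3 with DESeq2, 2 with robust moderation, 2 with either strand column, 4 without both replicates numbered 1, and 0 to 5 when 1 library was left out. For all genes, 530 became 1173 at 0.05, 1027 with DESeq2, 1345 without both replicates numbered 1, and 110 to 1311 with 1 library left out. Without a WT library the count was 152, 110 and 127 (replicates 1, 2 and 3), and without a *Tet2/3* DKO library it was 1311 and 1148, where the lone library is assumed to vary like WT. *Klf2* newly passed with no filter (-0.66), DESeq2 (-0.64), robust moderation (-0.64), the first strand column (-0.63) and without both replicates numbered 1 (-0.89). *Cd69* newly passed with no filter (1.18), the second strand column (1.24) and without both replicates numbered 1 (0.56), as did *Foxo1* in the last (-0.89) and *S1pr4* with DESeq2 (-0.37). With 1 library left out, log2 fold changes ran from -0.86 to -0.46 for *Klf2*, -0.72 to -0.60 for *S1pr1*, -0.50 to -0.27 for *S1pr4*, -0.91 to -0.051 for *Foxo1*, 0.026 to 0.76 for *Klf6*, 0.12 to 0.29 for *Klf3*, -0.17 to -0.050 for *Klf13*, -0.34 to -0.23 for *Foxp1* and 0.57 to 1.62 for *Cd69*. The cause of these shifts was not tested. Counts of listed genes called with 1 library left out are to be read beside the counts over all genes in the same fits. With the replicate number as a block, 358 genes and 1 of the 9 passed. The deviations of same-numbered libraries from their genotype mean correlated at 0.02 and 0.00. With 2 *Tet2/3* DKO libraries these deviations mirror each other, so the values cannot decide whether same-numbered libraries were paired. The ratio of *S1pr1* to *Cd69* kept its direction in the 7 alternatives run for it (either strand column, or 1 library left out), with a log2 difference from -2.22 to -1.27. *Ccr7*, *Ccr4*, *Arhgef1* and *Cdkn1a* were lost without each WT library, *Tcf7* also with the block.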
